A study of Homo sapiens with 58 samples.

Results

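Genes for the nuclear-encoded subunits of mitochondrial respiratory complexes I to IV were described across HaCaT keratinocyte lines, media, ligands and inhibitors. They were taken by symbol: NDUFA, NDUFB, NDUFC, NDUFS or NDUFV followed by a number, SDHA to SDHD, symbols that start with UQCR, and COX4 to COX8 genes. Of 19775 genes measured by a probe set (a group of array probes for 1 transcript) that carries 1 gene symbol, 59 met this rule. They comprise 32 genes of complex I, 3 of complex II (SDHA, SDHC and SDHD), 6 of complex III and 18 of complex IV. Among the complex IV genes are 6 tissue isoforms, 1 pseudogene (COX6A1P1) and COX7A2L, which takes part in joining respiratory complexes into supercomplexes. Where a gene had several probe sets, the one with the highest mean over the 58 arrays stood for it. A further 9 probe sets for such subunits are shared with another symbol and were left out, and SDHB was not analysed here.

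Complex I (NADH dehydrogenase) and complex II (succinate dehydrogenase) pass electrons from NADH and succinate to ubiquinone, complex III passes them on to cytochrome c, and complex IV (cytochrome c oxidase) to oxygen. Complexes I, III and IV pump protons across the inner mitochondrial membrane, and ATP synthase uses the resulting gradient. Most subunits are encoded in the nucleus, a few in mitochondrial DNA, and many of the nuclear genes carry promoter sites for NRF-1, for the ETS factor GABP and for YY1.

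The series holds 58 arrays of RNA from HaCaT, an immortalized and aneuploid human keratinocyte line, and from isogenic lines made from it. The lines carry forced expression of the mutant HRAS-VAL12D (HaCaT-HRAS), of wild-type EGFR (HaCaT-EGFR) or of RELA/p65 (HaCaT-p65), or an empty vector (HaCaT-vector). In serum there were 3 arrays of HaCaT-HRAS, 5 of HaCaT-EGFR, 3 of HaCaT-p65, 3 of HaCaT-vector and 3 of HaCaT with nothing forced. Of the 5 HaCaT-EGFR arrays in serum, 1 is labelled 4 h and 1 is labelled 8 h. EGF at 10 ng/ml after 12 h without serum was given to HaCaT-EGFR (5 arrays at 4 h, 2 at 8 h) and to HaCaT-vector (4 arrays at 4 h). TNF-α at 10 ng/ml was given to HaCaT-p65 (4 arrays at 4 h, 1 at 8 h) and to HaCaT-vector (3 arrays at 4 h). Replicates 3 and 4 of HaCaT-p65 with TNF-α carry the same hour and replicate number in their labels and share 1 processing date. They were kept as separate arrays. Serum-starved cells without ligand numbered 7 arrays of HaCaT-EGFR (5 at 4 h, 2 at 8 h), 3 of HaCaT-p65 (2 at 4 h, 1 at 8 h) and 4 of HaCaT-vector (all at 4 h). Inhibitors were gefitinib, which blocks EGFR, LY294002, which blocks PI3 kinase, and U1026, taken from the study as a MEK inhibitor. Gefitinib was given to HaCaT-EGFR with EGF (1 array at 4 h, 1 at 8 h) or in serum (1 array at 4 h, 1 at 8 h). LY294002 and U1026 were each given on 1 array of HaCaT-EGFR and 1 of HaCaT-vector with EGF, all at 4 h. Nothing states that the arrays of a group came from separate cultures, so p-values measure a spread between arrays, which may not be that between cultures. This spread was pooled over all 58 arrays in 1 fit and was not taken from the compared groups alone. Every line stands for 1 cell line, and in bulk RNA fewer cells of a type and less RNA per cell cannot be told apart.

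Values are log2 array values. Array medians over all genes lay between 5.98 and 6.33. Over the 58 arrays, KRT5 ran from 10.84 to 13.13, KRT14 from 10.72 to 13.45, SFN from 11.18 to 13.25 and CDH1 from 11.28 to 12.34, and all 6 keratinocyte markers measured lay between 7.58 and 13.45. Markers of other cell types lay between 2.02 and 7.33 (5 fibroblast genes), 3.15 and 4.96 (3 leukocyte genes), 3.30 and 5.96 (3 melanocyte genes), 3.01 and 8.73 (4 endothelial genes, CDH5 highest) and 3.31 and 6.71 (4 muscle genes, DES highest), values that have no common scale between genes. Their part in the results was not tested. The serum arrays without gefitinib shared 1 processing date, apart from replicates 4 and 5 of HaCaT-EGFR. HaCaT-EGFR in serum was the only condition on both that date and another. For each gene the date correction therefore gave replicates 4 and 5 the mean of the HaCaT-EGFR arrays on the shared date. The HaCaT arrays differed most among themselves: the median over the 59 genes was 9.90 on replicate 1 and 9.56 and 9.60 on the others. One HaCaT-p65 array, replicate 5 of the TNF-α group, is described once in the study's material as a control, and its effect is given beside the TNF-α result.

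A gene was called where limma's Benjamini-Hochberg adjusted p over all genes was under 0.05, with condition and processing date fitted to all 58 arrays. Over 18 comparisons of lines, media, ligands and inhibitors, 28 of the 59 genes passed in none, 11 in 1 and 14 in 2 or 3. The other 6 passed in 4 or more. COX5A and COX4I1, nuclear subunits of complex IV, passed in 7 and 6 comparisons. SDHD, a membrane anchor of succinate dehydrogenase, and NDUFA8, an accessory subunit of complex I, passed in 5 each. NDUFA6, another complex I accessory subunit, and UQCR10, a small subunit of complex III, passed in 4 each.

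The promoters of the 4 genes that passed in 5 or more comparisons are shown because the results below turn on them, a choice made after their values were seen. Each runs from 250 bases before the RefSeq start to 50 after it, in GRCh38.p14, 5′ to 3′ along the gene. The capitals mark matches on either strand to GCATGCG (NRF-1) or CCGGAAG (ETS, GABP). A palindromic run of 8 capitals holds an NRF-1 match on both strands.
COX5A (chr15:74938024-74938323, minus strand): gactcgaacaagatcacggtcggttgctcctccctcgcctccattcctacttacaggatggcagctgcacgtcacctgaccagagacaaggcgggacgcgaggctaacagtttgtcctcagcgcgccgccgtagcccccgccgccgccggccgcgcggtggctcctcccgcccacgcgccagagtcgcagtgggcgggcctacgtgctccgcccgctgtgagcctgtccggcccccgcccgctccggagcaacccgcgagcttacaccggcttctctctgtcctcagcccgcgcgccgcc
COX4I1 (chr16:85799445-85799744, plus strand): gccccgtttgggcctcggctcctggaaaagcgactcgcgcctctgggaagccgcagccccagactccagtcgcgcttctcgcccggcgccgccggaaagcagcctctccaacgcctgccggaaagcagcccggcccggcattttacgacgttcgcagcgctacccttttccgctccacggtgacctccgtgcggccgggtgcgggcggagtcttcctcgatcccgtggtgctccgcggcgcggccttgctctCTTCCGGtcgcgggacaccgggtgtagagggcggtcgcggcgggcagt
SDHD (chr11:112086623-112086922, plus strand): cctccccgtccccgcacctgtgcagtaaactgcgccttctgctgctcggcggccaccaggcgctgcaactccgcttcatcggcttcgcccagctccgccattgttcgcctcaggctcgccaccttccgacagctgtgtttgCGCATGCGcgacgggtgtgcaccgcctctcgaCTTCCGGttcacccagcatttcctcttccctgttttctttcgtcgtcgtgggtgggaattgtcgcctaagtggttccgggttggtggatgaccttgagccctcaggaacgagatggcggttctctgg
NDUFA8 (chr9:122159730-122160029, minus strand): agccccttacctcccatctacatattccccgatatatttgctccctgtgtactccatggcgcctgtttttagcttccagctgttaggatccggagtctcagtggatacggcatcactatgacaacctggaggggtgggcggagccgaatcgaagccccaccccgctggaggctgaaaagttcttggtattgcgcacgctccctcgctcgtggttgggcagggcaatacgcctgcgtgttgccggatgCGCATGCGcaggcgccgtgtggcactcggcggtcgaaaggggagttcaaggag

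The COX5A promoter holds none of the motifs searched, that of COX4I1 an ETS match, that of SDHD an NRF-1 and an ETS match, and that of NDUFA8 an NRF-1 match. The search also covered AAGATGG (YY1), which is in none of the 4. Of the 59 genes, 51 had a promoter in the RefSeq table. NRF-1 letters were present in 8 of 51 (15.7%), against 4.13% of 27305 promoters, ETS letters in 13 (25.5%), against 10.7%, and YY1 letters in 10 (19.6%), against 6.06%. At least 1 motif was present in 26 of 51 (51%) and in 18.9% of all promoters. None of the 4 tissue isoforms with a promoter in the table held one. A match describes the letters of these windows and is no evidence of binding.

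The 59 genes moved over different ranges across the 58 arrays. The distance from the lowest to the highest array was 0.55 for the gene that varied least and 2.09 for the gene that varied most, with a median of 0.94 on the log2 scale. Array values of different probe sets have no common scale, so no order is read between genes. Among the tissue isoforms of complex IV, COX7B2 ran from 3.08 to 3.76 and COX8C from 2.91 to 4.17, both known from testis. COX4I2, known from lung, ran from 4.83 to 6.04. COX6A2 and COX7A1, forms of heart and skeletal muscle, ran from 4.23 to 5.64 and from 4.78 to 6.34. COX6B2, another testis form, ran from 4.71 to 6.80, the widest range of the 59. SDHA ran from 9.14 to 10.2 and SDHC from 10.59 to 11.16.

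**Figure D1:**
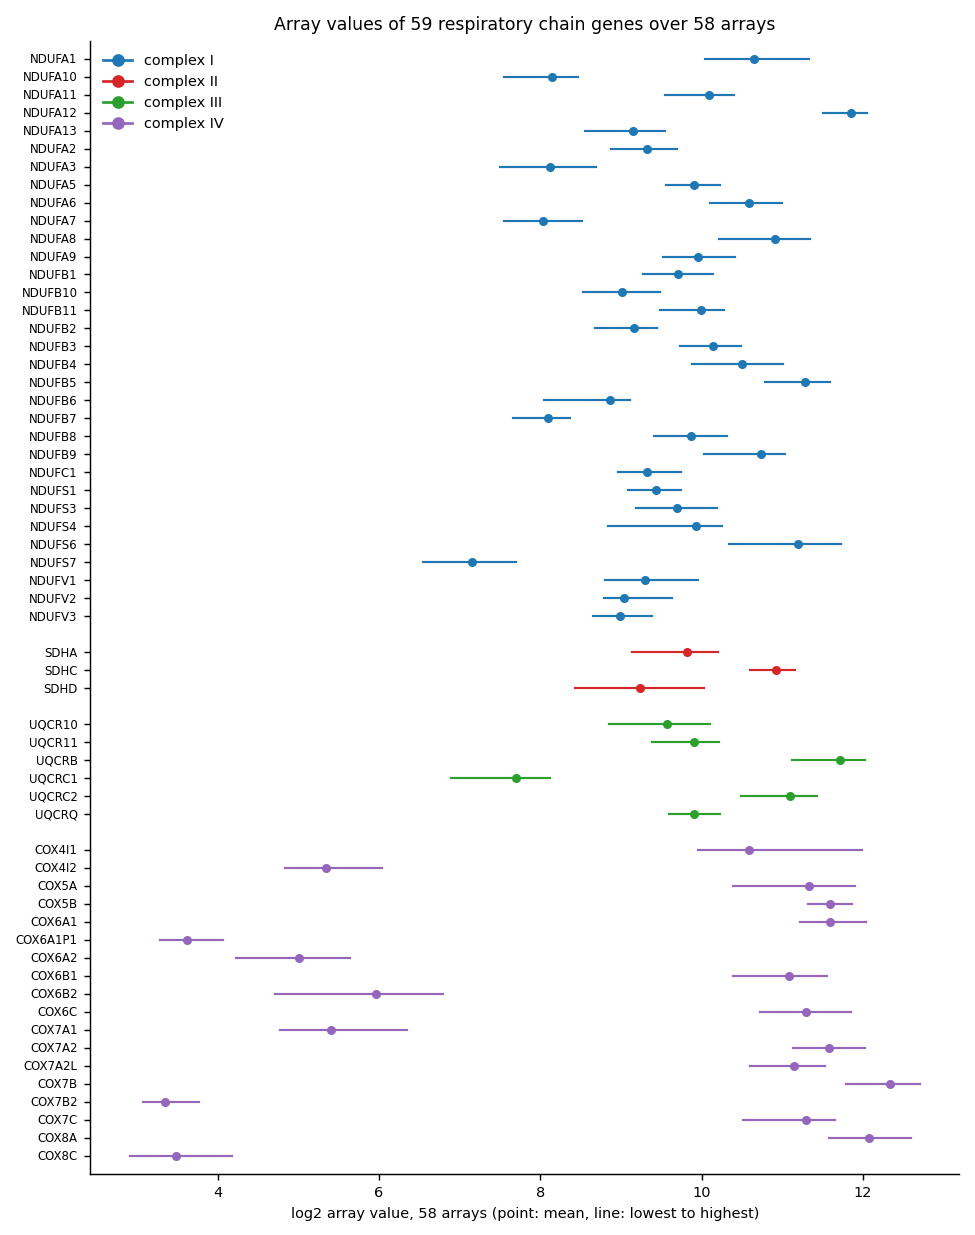
Log2 array value (horizontal axis) of each of the 59 genes over all 58 arrays; the point is the mean, the line runs from the lowest to the highest array and the colour gives the complex. COX7B2 has a short line, from 3.08 to 3.76, and COX6B2 the longest, from 4.71 to 6.80.

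HaCaT-HRAS had the largest number of changed subunits. In serum, 14 of the 59 genes were higher in HaCaT-HRAS than in HaCaT-vector and 1 was lower, together 25.4% of the 59. Over all genes 18.2% passed, 9.57% as higher and 8.63% as lower, so the share of higher genes was above that background and the share of lower genes was below it. Against HaCaT, 23 were higher and 1 was lower (40.7% of the 59), where 17.7% of all genes passed, 8.85% as higher and 8.83% as lower. These comparisons share the HaCaT-HRAS arrays. By mean array value, which has no common scale between genes, 52 of the 59 lay above the median gene and 32 in the top 10%. The shares over all genes, here and below, were not matched for array value, and its part in them was not tested. The median change of the 59 genes was 0.09 against HaCaT-vector, with 38 genes above 0, and 0.21 against HaCaT, with 51 above 0, and the medians of all genes were -0.04 and -0.03. With each array centred on its own median the 59 genes had medians of 0.03 and 0.18. Among the 5 lines in serum HaCaT-HRAS had the highest mean for 34 of the 59 genes, and HaCaT-p65 the lowest for 33. Array medians over all genes ran from 6.19 to 6.26 in HaCaT-HRAS and from 5.99 to 6.22 in HaCaT-p65. The same ranking over all genes is not given here, so these counts are not read as particular to the subunits.

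COX5A, a structural subunit of cytochrome c oxidase, had the largest difference. Its log2 values were 11.89, 11.90 and 11.67 in HaCaT-HRAS, against 10.60, 10.63 and 10.39 in HaCaT-vector, and the groups were more than 1 log2 unit apart. The mean was 11.82 ± 0.13 in HaCaT-HRAS and 10.54 ± 0.13 in HaCaT-vector (SD, n = 3 each), a difference of 1.28 (SE 0.138, limma adjusted p = 1.33e-09) or 2.43-fold. HaCaT lay between them at 11.22, 11.01 and 11.10, and the difference of HaCaT-HRAS from HaCaT was 0.71 (SE 0.138, adjusted p = 0.000137). HaCaT-vector was itself lower than HaCaT for COX5A, by 0.57 (SE 0.138, adjusted p = 0.011), a call that no longer passed without replicate 1 of HaCaT or replicate 3 of HaCaT-vector (highest adjusted p = 0.106).

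COX4I1, the ubiquitous form of subunit 4, reached 11.90, 11.99 and 11.75 in HaCaT-HRAS, against 11.10, 11.38 and 10.97 in HaCaT-vector. HaCaT had 11.01, 10.67 and 11.10, so all HaCaT-HRAS arrays were above all arrays of both other lines. The difference was 0.73 from HaCaT-vector (SE 0.121, adjusted p = 9.72e-06) and 0.95 from HaCaT (SE 0.121, adjusted p = 7.27e-08). COX6C, a small complex IV subunit, had 11.84, 11.85 and 11.61 in HaCaT-HRAS and 11.16, 11.26 and 11.03 in HaCaT-vector, a difference of 0.61 (SE 0.116, adjusted p = 8.7e-05). No other complex IV gene passed against HaCaT-vector, and COX6A1 was the only further one against HaCaT, at 0.31 (SE 0.109, adjusted p = 0.0449), lost without any of 4 arrays (HaCaT-HRAS or HaCaT replicates 2, HaCaT-HRAS replicate 1 or HaCaT replicate 3).

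The 6 tissue isoforms and COX6A1P1 gave no call in either comparison. Their differences between HaCaT-HRAS and HaCaT-vector ran from -0.59 (COX6B2) to 0.33 (COX8C). The standard error of COX6B2 was 0.277, the widest of the 59.

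SDHD was the complex II gene that changed. HaCaT-HRAS had 10.02, 9.97 and 9.63, against 8.91, 8.85 and 8.72 in HaCaT-vector, with no overlap. The difference was 1.05 (SE 0.121, adjusted p = 6.54e-09), or 2.07-fold, and 0.85 from HaCaT (SE 0.121, adjusted p = 6.71e-07), where values were 9.41, 8.70 and 8.95. SDHA, the flavoprotein that oxidizes succinate, and SDHC, the other membrane anchor, did not pass: their differences from HaCaT-vector were -0.02 and -0.03.

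In complex I, 7 of 32 genes were higher in HaCaT-HRAS than in HaCaT-vector and 1 was lower. NDUFS3 and NDUFV2, both core subunits, were higher: NDUFS3 had 10.20, 9.97 and 10.00 in HaCaT-HRAS, against 9.48, 9.52 and 9.39 in HaCaT-vector (difference 0.59, SE 0.0922, adjusted p = 3.75e-06). NDUFV2, which binds an iron-sulfur cluster, had 9.64, 9.61 and 9.60 in HaCaT-HRAS, against 9.04, 9.08 and 9.02 in HaCaT-vector (difference 0.57, SE 0.0922, adjusted p = 6.41e-06). The other core subunits tested, NDUFS1, NDUFV1 and NDUFS7, did not pass, at 0.20, -0.10 and 0.29. The accessory subunit NDUFA1 had 11.30, 11.33 and 11.10 in HaCaT-HRAS, against 10.58, 10.79 and 10.52 in HaCaT-vector, a difference of 0.61 (SE 0.12, adjusted p = 0.000135). Further accessory subunits rose by 0.47 (NDUFA9 and NDUFB1), 0.46 (NDUFA2) and 0.38 (NDUFB4). NDUFB4 lost its call without any of 4 arrays (HaCaT-HRAS replicate 1 or 2, HaCaT-vector replicate 1 or 3). NDUFA2 rested on 1 probe set, and with the mean over its 3 probe sets its change was -0.000572.

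NDUFA8 moved the other way. HaCaT-HRAS had 10.34, 10.41 and 10.22, against 11.07, 11.05 and 10.76 in HaCaT-vector and 11.21, 10.70 and 10.88 in HaCaT. All HaCaT-HRAS arrays were below all arrays of both other lines. NDUFA8 fell by 0.64 relative to HaCaT-vector (SE 0.0967, adjusted p = 2.09e-06) and by 0.61 relative to HaCaT (SE 0.0967, adjusted p = 5.66e-06).

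Complex III gave 3 of 6 genes higher against HaCaT-vector and 5 of 6 against HaCaT. UQCR10 had 9.71, 9.75 and 9.71 in HaCaT-HRAS, against 9.23, 9.23 and 9.18 in HaCaT-vector and 9.15, 8.85 and 9.13 in HaCaT. Its difference was 0.51 from HaCaT-vector (SE 0.117, adjusted p = 0.00107) and 0.68 from HaCaT (SE 0.117, adjusted p = 2.14e-05). UQCRC1, a large core protein of the complex, and UQCRB, a small subunit near the ubiquinone site, were higher than in HaCaT-vector by 0.44 (adjusted p = 0.00721) and 0.36 (adjusted p = 0.0161). UQCRB lost its call without HaCaT-HRAS replicate 1 or 2 or HaCaT-vector replicate 3. Only UQCRQ, the subunit that did not pass against HaCaT, stayed at 0.06.

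Beyond the genes already named, NDUFS6, NDUFC1, NDUFB11, NDUFS1, NDUFB7 and NDUFA12 of complex I and UQCRC2 and UQCR11 of complex III were higher in HaCaT-HRAS than in HaCaT, by 0.25 to 0.52. For 7 of these 8 the call was lost without at least 1 array, each time including HaCaT replicate 2 or 3. NDUFB11 lost it without HaCaT replicate 2 alone, as did NDUFB4, and NDUFC1 kept its call throughout. A fit of these groups alone, in place of all 58 arrays, gave 6 calls. Against HaCaT-vector the same kind of fit gave 16.

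**Figure D2:**
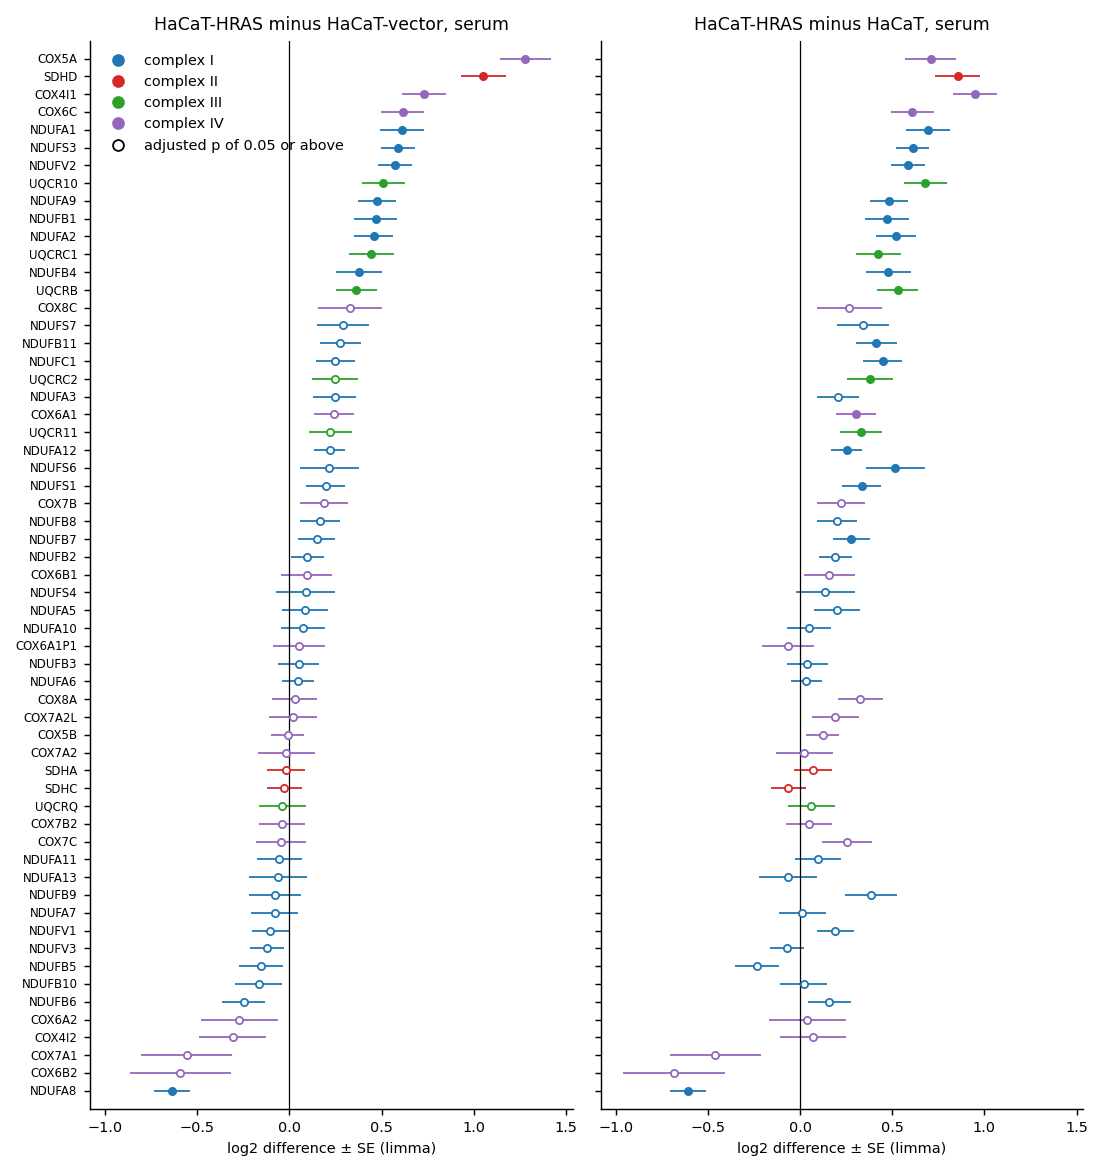
Log2 difference ± SE from limma (horizontal axis) of all 59 genes, HaCaT-HRAS minus HaCaT-vector on the left and HaCaT-HRAS minus HaCaT on the right, both in serum; filled points have an adjusted p under 0.05 and colours give the complex. COX5A, SDHD and COX4I1 lead on both sides, and NDUFA8 is the filled point below 0.

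Second probe sets bear on these calls. Of the 15 genes that passed against HaCaT-vector, 8 had 13 other probe sets, and 10 of the 13 had the same sign, including all 8 with a mean of at least 6. Of the 13, 4 passed in the same direction and 0 in the opposite one. Against HaCaT, 14 of the 24 passing genes had 23 other probe sets, of which 15 had the same sign, 2 passed in the same direction and 0 in the opposite one; with a mean of at least 6, 10 of 11 had the same sign. COX5A rose by 0.64 on its second probe set (SE 0.157, adjusted p over all probe sets = 0.00309), and COX4I1 by 0.72 on its second (SE 0.12, adjusted p = 1.77e-05). SDHD had only 1 other, with a mean of 3.81 over the arrays and a difference of -0.17 (adjusted p = 0.622). COX7B did not pass on the probe set used (0.19), while a second one, with a mean of 8.01, rose by 0.99 (SE 0.193, adjusted p = 0.0002).

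HaCaT-p65 and HaCaT-EGFR changed fewer subunits in serum. HaCaT-p65 had 1 of the 59 genes higher and 2 lower than HaCaT-vector, where 7.18% of all genes passed (3.99% higher, 3.19% lower). HaCaT-EGFR had 3 higher and 4 lower, where 7.87% of all genes passed (3.97% higher, 3.9% lower). These comparisons share the HaCaT-vector arrays with that of HaCaT-HRAS, and so does the position of HaCaT-vector below HaCaT for COX5A. The 59 genes had a median of -0.14 in HaCaT-p65, with 50 below 0, and of -0.02 in HaCaT-EGFR. Centring each array on its median gave -0.09 in HaCaT-p65 and turned that of HaCaT-EGFR to 0.00.

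COX5A was higher in both lines. HaCaT-EGFR had 11.58, 11.52, 11.34, 11.47 and 11.50 and HaCaT-p65 11.36, 11.14 and 10.89, all above the highest HaCaT-vector array at 10.63. The differences were 0.94 in HaCaT-EGFR (SE 0.138, adjusted p = 3.56e-06) and 0.59 in HaCaT-p65 (SE 0.138, adjusted p = 0.00343). Against HaCaT neither line passed for COX5A.

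COX4I1 went down in both lines while it was up in HaCaT-HRAS. HaCaT-EGFR had 10.47, 10.39, 10.19, 10.35 and 10.35, and HaCaT-p65 10.60, 10.36 and 10.17, all below the lowest HaCaT-vector array at 10.97 and the lowest HaCaT array at 10.67. COX4I1 fell by 0.80 in HaCaT-EGFR (SE 0.121, adjusted p = 6.75e-06) and by 0.77 in HaCaT-p65 (SE 0.121, adjusted p = 1.2e-05) relative to HaCaT-vector. All 3 other COX4I1 probe sets were lower in both lines, and 2 of them passed in each.

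NDUFA8 was lower in HaCaT-p65, at 10.52, 10.32 and 10.29, with a difference of -0.59 from HaCaT-vector (SE 0.0967, adjusted p = 3.12e-05) and -0.56 from HaCaT (SE 0.0967, adjusted p = 0.000114). In HaCaT-EGFR it was 0.07 above HaCaT-vector and did not pass. SDHD had 9.58, 9.39, 9.38, 9.41 and 9.49 in HaCaT-EGFR, all above HaCaT-vector, a difference of 0.63 (SE 0.121, adjusted p = 0.000319). In HaCaT-p65 SDHD was at 8.93, 8.55 and 8.42, overlapping HaCaT-vector, and did not pass (-0.19, adjusted p = 0.533).

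HaCaT-EGFR also differed from HaCaT-vector in 4 further genes. NDUFA3, an accessory subunit of complex I, had 8.20, 8.26, 8.30, 8.28 and 8.22, against 7.65, 7.80 and 7.78 in HaCaT-vector, and was higher by 0.51 (SE 0.115, adjusted p = 0.00209). NDUFA6 had 10.16 to 10.24 on 5 arrays, against 10.59, 10.73 and 10.57 in HaCaT-vector, and fell by 0.43 (SE 0.0863, adjusted p = 0.000591). NDUFV1, the core subunit that binds NADH, had 8.94 to 9.07, against 9.43, 9.64 and 9.44 in HaCaT-vector, and fell by 0.48 (SE 0.101, adjusted p = 0.00093). COX8A, a small ubiquitous complex IV subunit, had 11.70 to 11.96, against 12.36, 12.34 and 12.24 in HaCaT-vector, and fell by 0.45 (SE 0.122, adjusted p = 0.0112); the call was lost without HaCaT-vector replicate 1 or HaCaT-EGFR replicate 3.

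Against HaCaT, HaCaT-EGFR had 3 genes higher and 2 lower, where 3.88% of all genes passed. NDUFA3 (0.47), UQCR10 (0.44) and SDHD (0.43) were higher and COX4I1 (-0.58) and NDUFA6 (-0.44) lower. The groups of SDHD overlapped. The calls of all 3 higher genes were lost without HaCaT replicate 2 or without HaCaT-EGFR replicate 3, those of SDHD and UQCR10 also without HaCaT-EGFR replicate 1, and that of SDHD also without HaCaT-EGFR replicate 2 or HaCaT replicate 3. HaCaT-p65 had 0 higher and 2 lower than HaCaT (COX4I1 at -0.56 and NDUFA8), where 5.94% passed. HaCaT-vector itself had 1 gene higher and 1 lower than HaCaT, where 2.87% passed: COX5A, given above, and NDUFB6, an accessory complex I subunit, at 9.00, 8.93 and 8.92 in HaCaT-vector and 8.72, 8.86 and 8.05 in HaCaT (difference 0.41, adjusted p = 0.0484). NDUFB6 lost its call without HaCaT replicate 3 or any of the HaCaT-vector arrays.

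**Figure D3:**
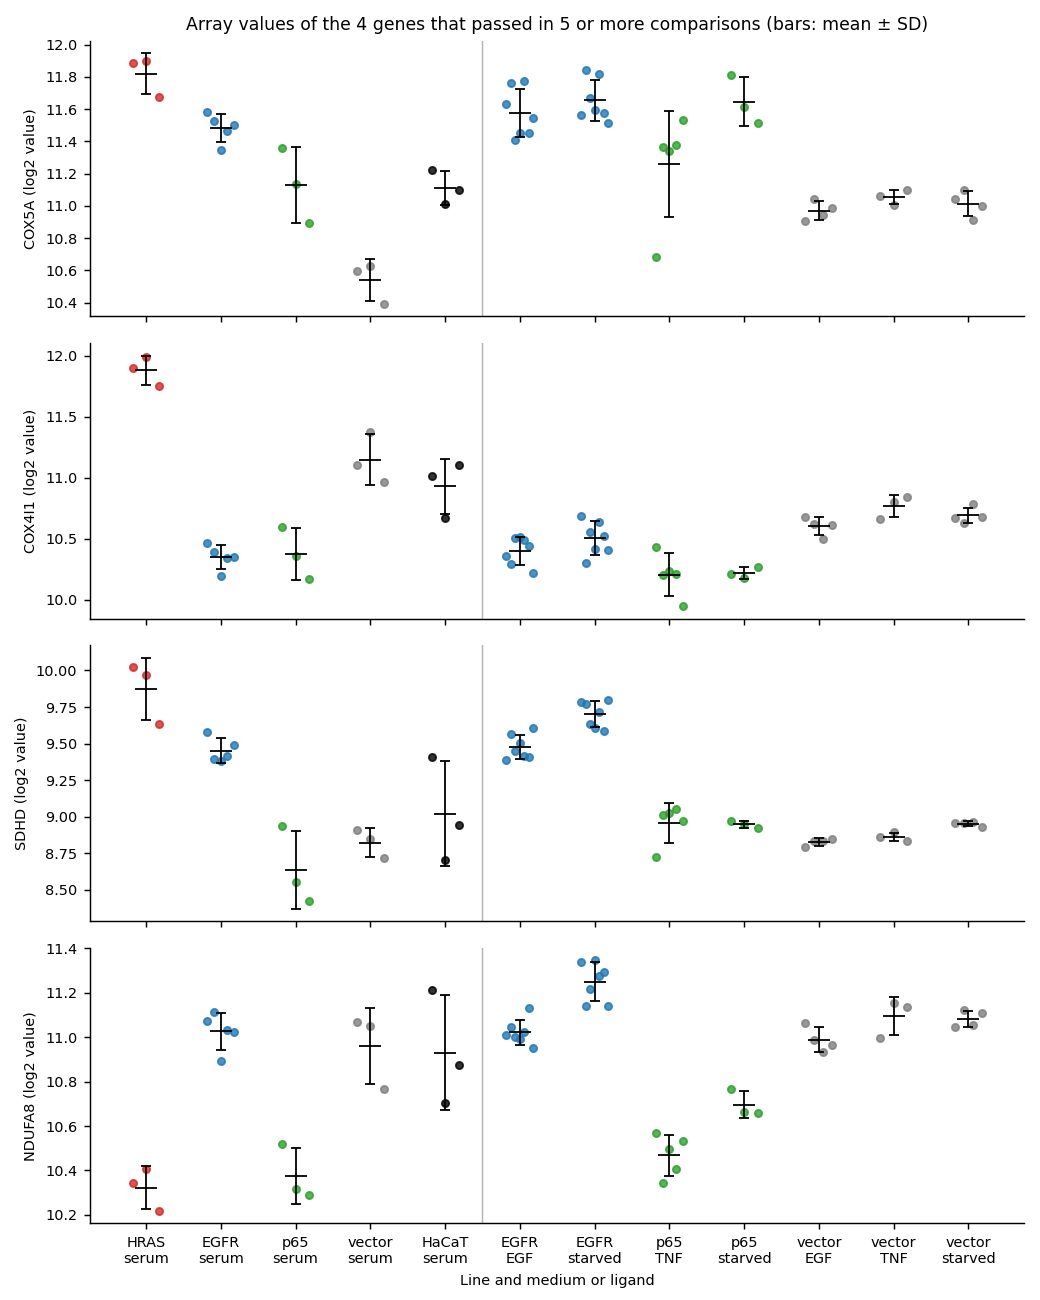
Log2 array values (vertical axes) of COX5A, COX4I1, SDHD and NDUFA8 by line and by medium or ligand; each point is 1 array and the bars give the mean ± SD. HaCaT-HRAS is highest for COX5A, COX4I1 and SDHD in serum, NDUFA8 is lowest in HaCaT-HRAS and HaCaT-p65, and COX4I1 in serum splits into HaCaT-HRAS above and HaCaT-EGFR and HaCaT-p65 below HaCaT-vector.

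Several line differences were also present without serum. In starved cells HaCaT-EGFR had 2 genes higher and 3 lower than HaCaT-vector, where 7.89% of all genes passed. SDHD had a lowest, median and highest value of 9.59, 9.72 and 9.80 in HaCaT-EGFR, against 8.95, 8.96, 8.97 and 8.93 in HaCaT-vector, a difference of 0.75 (SE 0.138, adjusted p = 0.000192). COX5A had 11.51, 11.59 and 11.84 in HaCaT-EGFR, against 10.91 to 11.10 on the 4 HaCaT-vector arrays, a difference of 0.64 (SE 0.158, adjusted p = 0.00549). In both genes the groups did not overlap.

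The lower genes were NDUFV1, NDUFA6 and COX8A. NDUFV1 had 8.80, 9.02 and 9.19 in HaCaT-EGFR, against 9.85, 9.65, 9.83 and 9.73 in HaCaT-vector, and fell by 0.76 (SE 0.115, adjusted p = 8.36e-06). NDUFA6 fell by 0.51 and COX8A by 0.49. Within the 1 date that held both groups (3 arrays against 1) all 5 genes had the same sign, with NDUFV1 at -0.70 and SDHD at 0.77. Of the 5, only NDUFV1 passed without that 1 HaCaT-vector array, replicate 4, COX8A was also lost without HaCaT-EGFR replicate 7, and in a fit of these groups alone 0 of the 5 did.

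Starved HaCaT-p65 had 1 gene higher than starved HaCaT-vector and 0 lower, where 5.3% of all genes passed. COX5A was at 11.81, 11.62 and 11.51 in HaCaT-p65, against 10.91 to 11.10 in HaCaT-vector, a difference of 0.63 (SE 0.19, adjusted p = 0.0409). No date held both groups, and the call was lost without any of 4 of the 7 arrays (HaCaT-p65 replicate 1 or 2, HaCaT-vector replicate 3 or 4). COX4I1 (-0.47, SE 0.166, adjusted p = 0.0962) and NDUFA8 (-0.39, SE 0.133, adjusted p = 0.0854) did not pass here. Their groups did not overlap, which held for 26 of the 59 genes (6 higher, 20 lower), so it sets neither gene apart. The same count over all genes is not given here, so the split is not read as particular to the subunits. The median of the 59 genes was -0.08, and 0.01 with each array centred on its median.

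For several of these genes, neighbours on the chromosome changed in the same direction. For every gene of the 59, the 10 nearest tested genes on each side in RefSeq order were taken, a measure chosen after the changes had been seen; none of the neighbours was itself among the 59. COX5A, on chromosome 15, had 12 of 20 neighbours higher and 0 lower in HaCaT-HRAS against HaCaT-vector, with a median of 0.44. In HaCaT-p65 11 were higher and 0 lower (median 0.42), and in HaCaT-EGFR 9 and 0 (median 0.45). The neighbour comparisons share the HaCaT-vector arrays, as those of COX5A itself do. Against HaCaT, 4 of the 20 were higher in HaCaT-HRAS and the median was 0.07, with COX5A at 0.71.

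NDUFA8, on chromosome 9, had 12 of 20 neighbours lower and 0 higher in HaCaT-HRAS against HaCaT-vector, with a median of -0.62, and its own difference was -0.64. In HaCaT-p65, 4 of its neighbours were lower and 1 higher (median -0.21). In HaCaT-EGFR, where NDUFA8 did not pass, 2 were lower and the median was -0.06. Against HaCaT, 11 of the 20 were lower in HaCaT-HRAS and 0 higher (median -0.41).

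SDHD, on chromosome 11, had 7 neighbours higher and 1 lower in HaCaT-HRAS and 9 higher and 1 lower in HaCaT-EGFR, against HaCaT-vector. In HaCaT-p65, where SDHD did not pass, 0 were higher and 2 lower. TIMM8B, the gene next to SDHD, which encodes a mitochondrial import chaperone, was higher by 1.09 in HaCaT-HRAS (SE 0.0958, adjusted p = 7.56e-12) and by 0.71 in HaCaT-EGFR (adjusted p = 8.75e-07), and at -0.18 in HaCaT-p65 (adjusted p = 0.363). COX4I1, on chromosome 16, had 3 neighbours higher and 0 lower in HaCaT-HRAS, 0 higher and 5 lower in HaCaT-EGFR, and 0 higher and 6 lower in HaCaT-p65. Starved HaCaT-EGFR repeated the direction for the neighbours of COX5A (9 higher, 0 lower), SDHD (7 higher, 1 lower), COX8A (0 higher, 7 lower) and NDUFV1 (0 higher, 5 lower).

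The 280 neighbours of the 14 genes that were higher in HaCaT-HRAS than in HaCaT-vector were higher in 20% and lower in 1.79%. These 14 genes were not alike: the median change of a gene's neighbours ran from -0.03 to 0.44 among them. The 872 neighbours of the 44 genes that did not pass were higher in 5.73% and lower in 9.75%. Against HaCaT, the 460 neighbours of the 23 higher genes were higher in 10.7% and lower in 4.13%, the 692 neighbours of the 35 genes that did not pass were higher in 7.23% and lower in 8.24%, and of all genes 8.85% were higher and 8.83% lower. In HaCaT-EGFR against HaCaT-vector, 20% of the 80 neighbours of the 4 lower genes were lower and 0% higher. The 1032 neighbours of the 52 genes that did not pass there were higher in 4.36% and lower in 3.97%. Of all genes 3.97% were higher and 3.9% lower. The copy number of these regions in the lines was not analysed here, and its part in the differences was not tested.

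**Figure D4:**
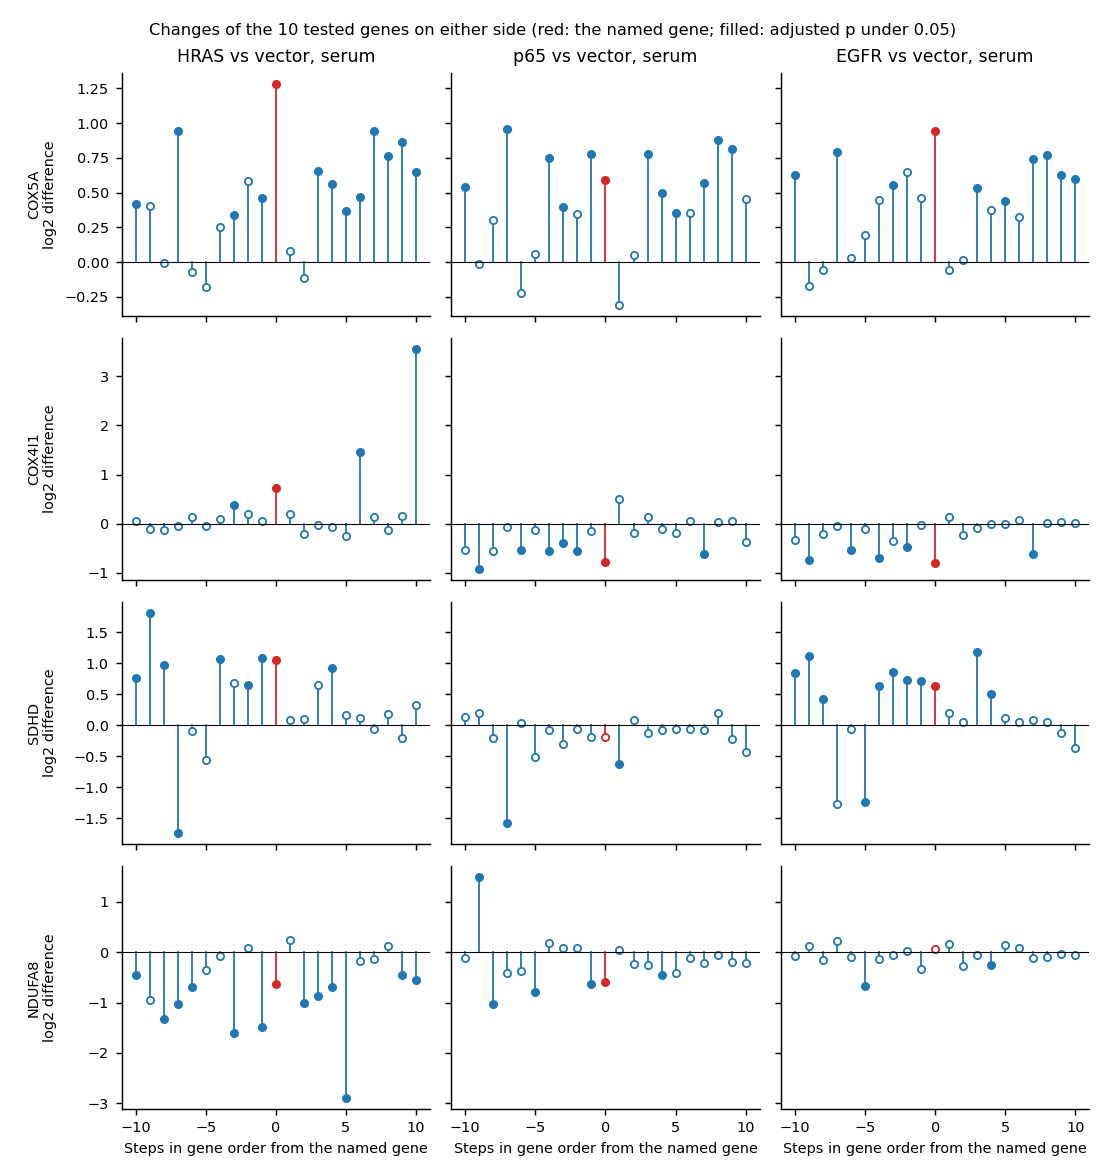
Log2 difference from HaCaT-vector in serum (vertical axes) of COX5A, COX4I1, SDHD and NDUFA8 (red, at 0) and of the 10 tested genes on either side in chromosome order (blue), for HaCaT-HRAS, HaCaT-p65 and HaCaT-EGFR; filled points have an adjusted p under 0.05. COX5A has 12 of 20 neighbours higher in HaCaT-HRAS and NDUFA8 has 12 of 20 lower.

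EGF lowered 6 of the 59 genes in HaCaT-EGFR relative to starved HaCaT-EGFR and raised 0, where 8.8% of all genes passed (3.88% higher, 4.93% lower). The 6 were NDUFB10, NDUFB5, NDUFA8, NDUFA6 and NDUFA12, accessory subunits of complex I, and UQCR10, and their changes were small, from -0.29 to -0.18. NDUFA8 had a lowest, median and highest value of 10.95, 11.01 and 11.13 with EGF, against 11.14, 11.27 and 11.35 without, and fell by 0.23 (SE 0.0633, adjusted p = 0.0167). NDUFB5 had 11.07, 11.18 and 11.24 with EGF, against 11.27, 11.35 and 11.58 without (difference -0.24, SE 0.0778, adjusted p = 0.0445). In these 2 genes the groups did not overlap, and in the other 4 they did.

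With each array centred on its median 0 of the 6 passed, and in a fit of these 2 groups alone 0 passed. Without the 8 h arrays 2 genes passed, NDUFA8 (-0.26, adjusted p = 0.0408) and COX7B2, which was higher by 0.29 (adjusted p = 0.0474). Leaving out 1 array at a time gave 2 to 8 genes. The median of the 59 genes was -0.09 (all genes -0.01), and -0.04 after centring. Within the 3 dates that held both groups, all 6 genes were lower on 2 dates and 5 of 6 on the other, where UQCR10 was at 0.03. The neighbours of the 6 genes were higher in 5% and lower in 6.67%.

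In HaCaT-vector EGF gave 0 calls among the 59 by limma, 2 at an unadjusted p under 0.05, where 1.01% of all genes passed. NDUFA8 was at -0.09 there and NDUFB5 at -0.15. The difference of the EGF response between HaCaT-EGFR and HaCaT-vector, tested as an interaction, passed for 0 of the 59 (1 at an unadjusted p under 0.05) and for 0% of all genes. Serum relative to starvation in HaCaT-EGFR gave 0 calls (13 at an unadjusted p under 0.05), where 3.25% of all genes passed. The median of the 59 was -0.15 with 49 genes below 0, and -0.06 after centring. Without a date term in the fit 18 genes passed in that comparison. The deposited values were already corrected for date, so this left the log2 differences unchanged and made only their standard errors smaller. Those p-values carry no allowance for the date correction, and the 18 calls add no evidence of a difference.

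TNF-α in HaCaT-p65 gave 0 calls relative to starved HaCaT-p65, where 2.03% of all genes passed, with 16 genes at an unadjusted p under 0.05 and 49 of 59 below 0. COX5A was at 10.69, 11.36, 11.34, 11.38 and 11.53 with TNF-α and 11.81, 11.62 and 11.51 without (difference -0.39, SE 0.125, adjusted p = 0.0891). SDHA had 9.14, 9.33, 9.53, 9.49 and 9.56 with TNF-α, against 9.82, 9.65 and 9.66 without (difference -0.30, SE 0.0923, adjusted p = 0.0694), with no overlap. Replicate 1 was the lowest TNF-α array for both genes, and without it COX5A was at -0.19 (adjusted p = 0.482) and SDHA at -0.21 (adjusted p = 0.339). Without replicate 5, the array described once as a control, both genes passed (COX5A -0.45, adjusted p = 0.0367, and SDHA -0.34, adjusted p = 0.0352), and without replicate 4 SDHA alone of these did (-0.32, adjusted p = 0.0424). The median of the 59 was -0.13 and, after centring, -0.01. In HaCaT-vector TNF-α gave 0 calls and 0 at an unadjusted p under 0.05, where 0.905% of all genes passed. The difference of the TNF-α response between HaCaT-p65 and HaCaT-vector passed for 0 of the 59 (8 at an unadjusted p under 0.05), where 0.0101% of all genes passed.

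No inhibitor gave a call among the 59 genes. Gefitinib with EGF, relative to EGF alone in HaCaT-EGFR, gave 0 (2 at an unadjusted p under 0.05), where 1.81% of all genes passed. Gefitinib in serum gave 0 (1 at an unadjusted p under 0.05), where 1.79% passed. LY294002 with EGF, averaged over HaCaT-EGFR and HaCaT-vector, gave 0 (0 at an unadjusted p under 0.05), where 0.693% passed, and U1026 gave 0 (3 at an unadjusted p under 0.05), where 3.02% passed. These groups held 1 or 2 arrays per line, and half-widths of the 95% intervals had medians from 0.25 to 0.29 over the 52 genes other than the isoforms and the pseudogene, before any adjustment over genes.

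For SDHD, gefitinib with EGF gave 9.83 and 9.67, against 9.39, 9.45 and 9.60 as the lowest, median and highest of EGF alone, a difference of 0.27 (95% interval 0.02 to 0.53, adjusted p = 0.362). For NDUFA8, U1026 gave a difference of 0.01 (95% interval -0.20 to 0.21) and LY294002 one of -0.10 (95% interval -0.30 to 0.10). Over the 52 genes the changes ran from -0.19 to 0.17 with LY294002 and from -0.16 to 0.28 with U1026.

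**Figure D5:**
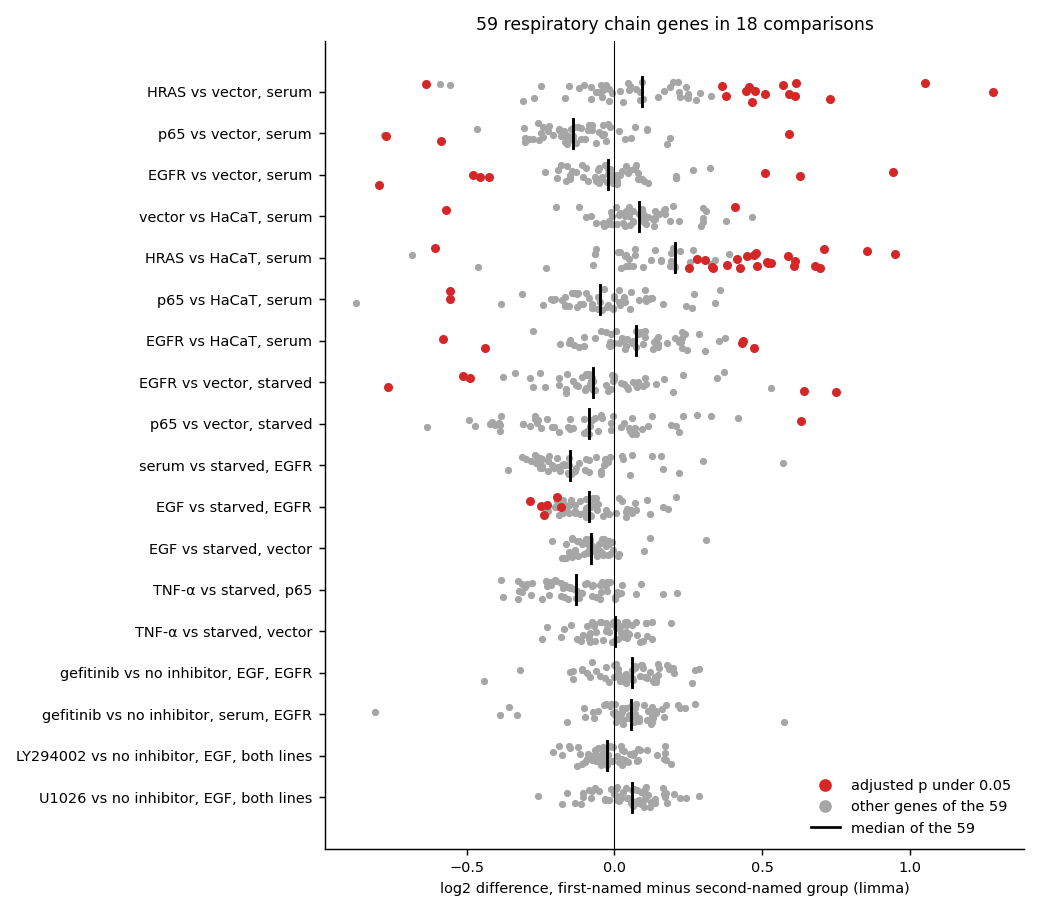
Log2 differences from limma (horizontal axis) of the 59 genes in 18 comparisons, each named as first minus second group; red points have an adjusted p under 0.05, grey points do not, and the black bar is the median of the 59. Calls reach beyond 1 in HaCaT-HRAS, EGF calls in HaCaT-EGFR lie between -0.29 and -0.18, and TNF-α and inhibitor comparisons hold no red point.

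Other genes of oxidative metabolism, from lists written with earlier results of these data known, were set beside the subunits. Of 18 nuclear ATP synthase genes, 8 were higher and 0 lower in HaCaT-HRAS than in HaCaT-vector, with a median of 0.33, where 9.57% of all genes were higher and 8.63% lower. ATP5ME, a membrane subunit, was higher by 0.69 (SE 0.12, adjusted p = 2.46e-05), and ATP5F1A and ATP5F1B, the catalytic α and β subunits, by 0.58 (SE 0.164, adjusted p = 0.00802) and 0.55 (SE 0.145, adjusted p = 0.00414). Against HaCaT 10 were higher and 0 lower, where 8.85% of all genes were higher. Of 12 tricarboxylic acid cycle genes measured, 4 were higher and 0 lower against HaCaT-vector. IDH3A, a subunit of NAD-dependent isocitrate dehydrogenase, led them at 0.97 (SE 0.0924, adjusted p = 5.44e-11). It was also higher than in HaCaT-vector in HaCaT-EGFR (0.70, adjusted p = 6.18e-07) and HaCaT-p65 (0.49, adjusted p = 0.000211). These comparisons share the HaCaT-vector arrays, and HaCaT-vector was itself below HaCaT for IDH3A, at -0.46 (SE 0.0924, limma adjusted p = 0.00136). Relative to HaCaT, IDH3A was at 0.51 in HaCaT-HRAS (SE 0.0924, adjusted p = 5e-05).

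Of 48 assembly factors of the complexes 4 were higher and 5 lower in HaCaT-HRAS than in HaCaT-vector, where, as for the lists that follow, 9.57% of all genes were higher and 8.63% lower. UQCC1, a complex III assembly factor, was higher by 0.56 there (SE 0.1, adjusted p = 3.63e-05) and by 1.15 in HaCaT-EGFR (adjusted p = 4.24e-11). HaCaT-vector was itself below HaCaT for UQCC1, at -0.78 (SE 0.1, limma adjusted p = 1.81e-06). Relative to HaCaT, UQCC1 was at 0.38 in HaCaT-EGFR (adjusted p = 0.022) and at -0.37 in HaCaT-p65 (adjusted p = 0.015). NDUFAF1, a complex I assembly factor, fell by 0.54 in HaCaT-HRAS relative to HaCaT-vector (SE 0.148, adjusted p = 0.00705). Of 75 mitochondrial ribosome genes 7 were higher and 7 lower, and of 19 glycolysis genes 4 were higher and 1 lower. Of 7 genes of mitochondrial DNA with a probe set 0 passed. Among 16 regulators of mitochondrial biogenesis 2 were higher and 0 lower: PPARGC1B, a coactivator of mitochondrial genes, by 0.72 (SE 0.187, adjusted p = 0.00376) and TFB1M, a methyltransferase of mitochondrial ribosomal RNA, by 0.45 (SE 0.0951, adjusted p = 0.000425). Relative to HaCaT-vector, PPARGC1A, another such coactivator, was at -0.80 in serum and -2.78 starved in HaCaT-EGFR. In HaCaT-p65 it was at -0.76 and -2.36. Each of these passed in limma (highest adjusted p = 0.0394). PPRC1, of the same list, was higher in both starved lines (0.48 in HaCaT-EGFR, 0.65 in HaCaT-p65). CYC1, cytochrome c1 of complex III, which the naming rule leaves out, did not pass in HaCaT-HRAS against HaCaT-vector (0.08) and was 0.42 above HaCaT (SE 0.116, adjusted p = 0.00704), while in HaCaT-EGFR it fell by 0.39 relative to HaCaT-vector (SE 0.116, adjusted p = 0.0281).

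With ligands and inhibitors the same lists gave these counts. EGF in HaCaT-EGFR raised 5 of the 16 regulators and lowered 0, where 3.88% of all genes were higher and 4.93% lower, among them MYC, a transcription factor of growth, by 0.81 (SE 0.144, adjusted p = 0.000227), and TFB2M, a mitochondrial transcription factor, by 0.41 (SE 0.119, adjusted p = 0.0231). It raised 2 of 19 glycolysis genes and lowered 0, hexokinase HK2 by 0.52 (SE 0.0903, adjusted p = 0.00014) and phosphofructokinase PFKP by 0.41 (SE 0.089, adjusted p = 0.00215), and 2 of 18 ATP synthase genes were lower. Gefitinib with EGF, relative to EGF alone, lowered 2 of 16 regulators and the same 2 glycolysis genes, where 1.81% of all genes passed, with MYC at -1.23 (SE 0.232, adjusted p = 0.00224) and HK2 at -0.99 (SE 0.145, adjusted p = 0.000176). These comparisons share the EGF arrays. U1026 raised 2 of 16 regulators and lowered 6, where 3.02% of all genes passed, with PPARGC1A, a coactivator of mitochondrial genes, at 0.85 (SE 0.245, adjusted p = 0.0447) and TFB2M at -0.71 (SE 0.189, adjusted p = 0.0269). TNF-α in HaCaT-p65 lowered 4 of 18 ATP synthase genes and raised 0, where 2.03% of all genes passed, among them ATP5MC3, of the membrane ring, at -0.60 (SE 0.146, adjusted p = 0.0258) and ATP5F1A at -0.57 (SE 0.149, adjusted p = 0.0367). Array medians over all genes ran from 5.98 to 6.22 in these TNF-α arrays and from 6.13 to 6.23 in starved HaCaT-p65. Centring and leaving out single arrays moved the TNF-α results of the subunits, and neither is given here for the ATP synthase genes.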

How the data were processed

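The series measured RNA of HaCaT lines with 58 Affymetrix U133 Plus 2.0 arrays. The deposited values are log2 probe set summaries that the authors made with fRMA, after which they subtracted the processing date coefficients of a limma fit of condition and date; versions and further settings are not given in the sources used here. Because the date effect was already removed, the refit left date coefficients of at most 1.17e-08, and its p-values still carry the 6 dates as terms. Of 54675 probe sets, 41097 had 1 gene symbol, 1801 had several and 11777 had none. All 59 member IDs matched RefSeq.

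Values were tested with limma 3.58.1 in R 4.3.3 over 18 conditions and 6 dates (35 residual degrees of freedom), with Benjamini-Hochberg adjustment over 19775 genes and a threshold of 0.05. Precision is limited by how many arrays a group holds. The script was tested on simulated data. Tables and figures were made in Python 3.11.15.

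Genes and lists were chosen with earlier results of these data known. The text names up to 8 members with the largest rises and 8 with the largest falls of those passing in a comparison, the tissue isoforms, complex II, members that passed in 4 or more comparisons, and up to 3 genes of each other list; others it names were chosen after their values were seen. So were the neighbour measure, the promoters printed and the 8 members checked for arrays that stand apart.

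Replicate numbers were taken to pair samples where 3 or more same-numbered pairs existed and every pair of deviations correlated above 0.1, which held for HaCaT-HRAS against HaCaT-vector in serum (0.191 to 0.527) and HaCaT-EGFR against HaCaT-vector in serum (0.216 to 0.529). With the number as a block, 15 and 7 genes passed there, as without it. Alternatives were centring each array on its median, no date term, the mean of all probe sets of a gene, a filter on mean values under 6, the replicate block, the compared groups alone, and leaving out single arrays, the 8 h arrays or the array of doubtful label.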

Additional observations from a re-analysis of the deposited data

Results flagged for a closer look

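Dixon's test of 8 members in groups of 4 to 10 arrays marked 3 of 48 cases, and chance marks about 1 in 20. In HaCaT-p65 with TNF-α, replicate 1 had 10.69 for COX5A, against 11.34 to 11.53 on the other 4 arrays, with a gap of 0.777 of the group's range. The same array had 8.72 for SDHD, against 8.97 to 9.05 on the others, with a gap of 0.742 of the range. In HaCaT-vector with EGF, replicate 1 had 10.95 for NDUFA6, against 10.85 to 10.86 on the others, with a gap of 0.846 of the range.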

How the results depend on the processing

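Of 70 calls of single genes, 60 kept direction and threshold with each array centred on its median. With the replicate block 69 did, with the mean of all probe sets 54, and in a fit of the compared groups alone 30 of 69. All 70 were kept without a date term and with genes under a mean of 6 left out. Both of these settings leave the log2 differences unchanged and alter only p-values, so keeping all 70 is no sign of robustness. With the mean of probe sets NDUFA2 in HaCaT-HRAS against HaCaT-vector turned to -0.000572 (adjusted p = 0.999). Without any single array 43 of the 70 were kept.

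The number of passing genes moved by over 1.5 times as follows; the cause was not tested. Centring gave 0 for EGF in HaCaT-EGFR in place of 6, and 2 for starved HaCaT-p65 against HaCaT-vector in place of 1. Leaving out the date term changed no log2 difference in these date-corrected values, and the added calls come from smaller standard errors alone. Without a date term 5 passed in place of 2 in HaCaT-p65 against HaCaT, 13 in place of 5 in starved HaCaT-EGFR against HaCaT-vector, 15 in place of 1 in starved HaCaT-p65 against HaCaT-vector, 18 in place of 0 for serum against starvation in HaCaT-EGFR, 4 in place of 0 for TNF-α in HaCaT-p65 and 1 in place of 0 for gefitinib in serum. The mean of probe sets gave 1 in HaCaT-vector against HaCaT in place of 2, 3 in HaCaT-EGFR against HaCaT in place of 5, 2 in starved HaCaT-p65 against HaCaT-vector and 1 for serum against starvation. The filter on mean values gave 4 in HaCaT-p65 against HaCaT, 2 in starved HaCaT-p65 against HaCaT-vector and 3 for TNF-α in HaCaT-p65. The groups alone gave 0 in HaCaT-vector, HaCaT-p65 and HaCaT-EGFR against HaCaT, 6 in HaCaT-HRAS against HaCaT in place of 24, 0 for EGF in HaCaT-EGFR and 0 for starved HaCaT-EGFR against HaCaT-vector. Starved HaCaT-p65 against HaCaT-vector could not be fitted alone. Without the 8 h arrays 2 passed for EGF in HaCaT-EGFR, and without the array of doubtful label 2 for TNF-α in HaCaT-p65.

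With the replicate block, where the numbers only name samples, 6 passed in HaCaT-p65 against HaCaT, 9 for EGF in HaCaT-EGFR and 3 in starved HaCaT-p65 against HaCaT-vector; it moved no other count by over 1.5 times.

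Leaving out 1 array gave 13 to 17 in HaCaT-HRAS, 3 to 6 in HaCaT-p65 and 6 to 7 in HaCaT-EGFR against HaCaT-vector, 0 to 3 in HaCaT-vector, 17 to 27 in HaCaT-HRAS, 2 to 5 in HaCaT-p65 and 2 to 10 in HaCaT-EGFR against HaCaT, 1 to 5 in starved HaCaT-EGFR and 0 to 2 in starved HaCaT-p65 against HaCaT-vector, 2 to 8 for EGF in HaCaT-EGFR and 0 to 3 for TNF-α in HaCaT-p65, and 0 in the other comparisons. Inhibitor groups of 1 or 2 arrays per line limit what could be called there.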
